A study of Rattus norvegicus with 19 samples.

Results

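The genes described here make glucose and break down amino acids in the liver. They are 10 in number, Pck1, G6pc, Fbp1, Pc, Tat, Agxt, Sds, Ppargc1a, Got1 and Hal, and were chosen by name for their roles, not by a threshold on measured values. Earlier results of these data were known when they were chosen, so the choice was not blind to the data. Of these 10 genes, 9 could be read on the array, through 11 of the 31042 probe sets tested. The array named 14217 genes in all through probe sets with a single gene symbol. G6pc, which encodes the enzyme that releases free glucose, was annotated only on 4 probe sets that each carry the symbols of 3 genes (Psme3, Aoc3 and G6pc1), so no value is given for it.

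The samples were livers of Wistar Han rats (Crl:WI (Han)) collected on postnatal day 4. The dams received DE-71, a flame retardant made of brominated diphenyl ethers, chiefly pentabrominated ones, by daily gavage in corn oil, starting on gestation day 6 and ending on postnatal day 4. The 4 groups were the corn oil vehicle (5 arrays), 0.1 mg/kg per day (5 arrays), 15 mg/kg per day (4 arrays, replicates 2 to 5) and 50 mg/kg per day (5 arrays), and all groups shared the corn oil. RNA from the left lateral lobe was hybridised to 1-colour Affymetrix rat expression arrays, and levels are the deposited log2 values, so that a difference of 1 is a 2-fold difference. Dams were 11 to 12 weeks old on gestation day 2. The labels do not say whether a liver came from a pup or a dam, nor that arrays of a group stand for different animals or litters. The p-values therefore measure only how far these samples spread, which may be technical. Every sample is labelled female, whereas on all 19 arrays the Y-linked gene Eif2s3y read 9.55 to 10.07 and Xist read 3.88 to 4.29.

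Gluconeogenesis is the synthesis of glucose from lactate, glycerol and amino acids, and in the liver it supplies the blood between meals. It runs glycolysis backwards except at its irreversible steps, which pyruvate carboxylase, phosphoenolpyruvate carboxykinase, fructose-1,6-bisphosphatase and glucose-6-phosphatase bypass. Amino acid breakdown feeds it with carbon skeletons, and in the rat many of these genes are switched on around birth, when the glucose supply through the placenta ends and glucagon and glucocorticoids act on the liver.

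Some arrays stood apart from the rest or went against their labels, and the differences at 50 mg/kg are given with them and, further on, without them. Vehicle replicate 2 and 0.1 mg/kg replicate 2 differed from each other with an SD of only 0.0919 over the 15521 probe sets at or above the median level, against 0.201 to 0.598 for the other 170 pairs of arrays, and their mean levels of 12 kidney tubule markers were 9.60 and 9.61 against a median of 5.43. The library labelled 0.1 mg/kg replicate 1 read 14.06 for Cyp1a1, a gene induced through the aryl hydrocarbon receptor, where the other 4 arrays of its group read 7.19 to 8.42, the 15 mg/kg group 13.16 to 14.17 and the 50 mg/kg group 14.11 to 14.30. The mean of 9 hepatocyte markers lay between 14.45 and 14.52 on all 19 arrays, close to the top of the scale. By array number, 4 of the 5 arrays of the 50 mg/kg group were early (up to number 8) and 1 was late (9 to 20). The vehicle group held 1 early and 4 late arrays. Whether the array number stands for a run order or a batch is not known, and the cut at 8 was a choice made here. Values within early and late arrays are given beside each member's difference. Each such value at 50 mg/kg against vehicle rests on a single array in 1 of the groups. The only early vehicle array, replicate 1, read 11.25 for skeletal muscle markers, against a median of 5.05 over 19 arrays.

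Among the genes whose values follow, Pck1 and Ppargc1a are classic targets of cyclic AMP signalling, and their promoters are shown because these letters are a known recognition sequence of the cyclic AMP responsive factors. The windows are from RefSeq (GRCr8), 250 bases before to 50 after the annotated start, 5′ to 3′ on the gene's strand, for Pck1 at chr3:182348322-182348621 (plus strand) and for Ppargc1a at chr14:63634058-63634357 (plus strand). Capitals mark ACGTCA, searched on both strands with its reverse complement TGACGT; in TGACGTCA the 2 overlap.
Pck1: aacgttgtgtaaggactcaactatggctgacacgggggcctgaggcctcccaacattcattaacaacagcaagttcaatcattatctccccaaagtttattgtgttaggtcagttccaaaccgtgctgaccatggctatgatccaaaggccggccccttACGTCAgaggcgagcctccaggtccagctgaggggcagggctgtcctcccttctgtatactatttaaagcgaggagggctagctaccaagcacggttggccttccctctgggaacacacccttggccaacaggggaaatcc
Ppargc1a: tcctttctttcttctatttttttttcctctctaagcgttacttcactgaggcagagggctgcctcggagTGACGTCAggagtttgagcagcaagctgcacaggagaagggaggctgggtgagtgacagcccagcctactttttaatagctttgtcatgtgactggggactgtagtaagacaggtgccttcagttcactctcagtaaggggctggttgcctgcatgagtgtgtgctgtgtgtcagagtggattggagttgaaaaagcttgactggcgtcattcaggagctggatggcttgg
RefSeq windows were matched for 6 of the members (7 windows, with 2 for Agxt), and 2 of the 7 held the motif, against 7.94% of all 33469 windows of the same length. The motif was chosen after seeing the data, with Pck1 and Ppargc1a known as cyclic AMP targets, so these shares are no test of an excess. A match describes letters only, and both genes are described below by their measured levels.

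The comparison of 50 mg/kg with vehicle asked how the members differed at the highest dose. Pc fell, by 0.44 on the log2 scale, and it was the only one of the 9 measured members that passed the test. The other 8 members did not pass in either direction. In all, 8 of 9 members lay below the vehicle mean, Tat being the exception, where 45.6% of all probe sets lay below it. The members' median difference was -0.32 against 0.02 over all probe sets. At a limma adjusted p under 0.05, 499 of 31042 probe sets (1.61%) were called in either direction, and 0.383% were called lower, so 1 call among 9 members is a small count to read against that background. At an unadjusted p under 0.05, 3 members were lower (Pc, Ppargc1a and Fbp1), where 5.86% of all probe sets were.

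Pc encodes pyruvate carboxylase, the mitochondrial enzyme that turns pyruvate into oxaloacetate at the start of the pathway. On the 5 vehicle arrays its level was 10.23, 10.16, 10.22, 10.26 and 10.19, and on the 5 arrays at 50 mg/kg it was 9.45, 9.85, 9.82, 9.65 and 10.10. Every array at 50 mg/kg lay below every vehicle array, although replicate 5 came within 0.1 of them. Such separation with 50 mg/kg lower was seen for 1.48% of all probe sets. The difference was -0.44 (SE 0.107, 95% confidence interval -0.67 to -0.21), which is 1.36-fold lower, with a limma adjusted p of 0.0464.

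The levels of Pc at 15 mg/kg were 10.24, 9.94, 9.86 and 9.72, and at 0.1 mg/kg they were 10.02, 10.12, 10.30, 10.06 and 10.21. Of the 15 mg/kg arrays, 3 of 4 were below all vehicle arrays and the other lay within their range. Of the 0.1 mg/kg arrays, 3 of 5 were also below all vehicle arrays, and 1 was above them all. Those below were replicates 1, 2 and 4. Replicates 1 and 2 are among the arrays described above as standing apart or going against their labels. The SD of Pc was 0.04 in the vehicle group, against 0.11 at 0.1 mg/kg, 0.22 at 15 mg/kg and 0.24 at 50 mg/kg. The difference from vehicle was -0.28 at 15 mg/kg (limma adjusted p = 0.459) and -0.07 at 0.1 mg/kg (limma adjusted p = 1.00). The group means ran 10.21, 10.14, 9.94 and 9.77 from vehicle to 50 mg/kg, and 50 and 15 mg/kg differed by -0.16 (limma adjusted p = 0.795), so these neighbours in the order did not differ beyond their spread.

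The call for Pc held in 7 of 24 alternative fits, with an adjusted p between 0.0172 and 0.289, while its direction was lower in all 24. Leaving out any of the 5 vehicle arrays, or 50 mg/kg replicate 1, 2, 3 or 4, ended the call (limma adjusted p between 0.0666 and 0.131). Without vehicle replicate 2 and 0.1 mg/kg replicates 1 and 2 the difference was -0.45 (limma adjusted p = 0.0763), and with a block for early against late arrays it was -0.41 (limma adjusted p = 0.192). Among early arrays it was -0.54 (4 arrays at 50 mg/kg against 1 vehicle array), and among late arrays -0.10 (1 against 4). For 15 mg/kg the order was turned round, with 0.01 among early arrays (1 against 1) and -0.37 among late arrays (3 against 4).

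Mean levels of marker lists for other cells also differed between arrays of both groups. On the vehicle and the 50 mg/kg arrays they ranged from 5.27 to 9.60 and from 5.37 to 7.22 for kidney tubule (12 of 12 genes measured), and from 5.09 to 8.59 and from 5.05 to 5.23 for exocrine pancreas (10 of 12). For skeletal muscle (11 of 12) the ranges were 4.39 to 11.25 and 4.52 to 9.55. Intestine markers (6 of 8) lay at 5.71 to 6.81 and at 6.10 to 6.40, with 4 of 5 vehicle arrays below every 50 mg/kg array. Neutrophil markers (5 of 9) had medians of 11.55 and 11.10, and erythroid markers (7 of 10) 11.04 and 10.24. Medians were 9.93 and 9.35 for stellate cells (9 of 9), 6.28 and 6.17 for bile duct (5 of 7) and 10.24 and 10.30 for Kupffer cells (6 of 9). The neutrophil, erythroid, stellate cell and bile duct medians thus lay lower at 50 mg/kg beside Pc. The ranges of all these lists overlapped, and their part in the result was not tested. With the means of the kidney, pancreas, muscle and intestine lists as covariates, the difference in Pc was -0.45 (limma adjusted p = 0.289), so its size was as large and its call was lost. In these bulk samples, fewer cells of a type and less RNA per cell cannot be told apart.

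**Figure D1:**
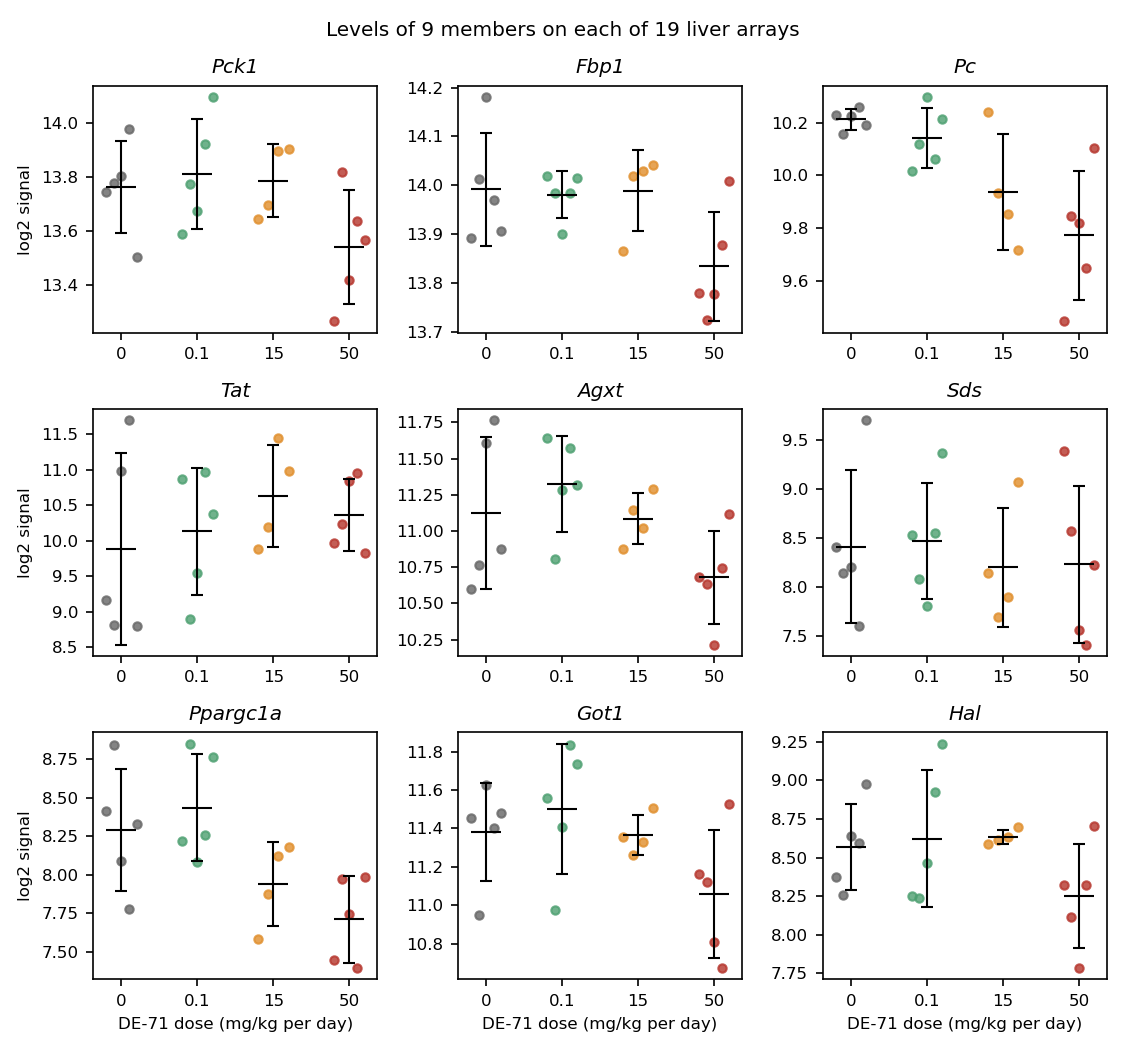
Log2 level (vertical axis, a separate range in each panel) of the 9 measured members on each of the 19 arrays, by DE-71 dose in mg/kg per day (horizontal axis); each point is an array, the long line is the group mean and the error bars are 1 SD. For Pc, all 5 arrays at 50 mg/kg (9.45 to 10.10) sit below all 5 vehicle arrays (10.16 to 10.26), while in the other panels these groups overlap.

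Pck1 encodes the cytosolic phosphoenolpyruvate carboxykinase, which turns oxaloacetate into phosphoenolpyruvate. Its level was 13.74, 13.78, 13.80, 13.98 and 13.50 on the vehicle arrays and 13.26, 13.82, 13.42, 13.63 and 13.56 at 50 mg/kg. The groups overlapped, with 50 mg/kg replicates 1 and 3 below every vehicle array and replicate 2 within the vehicle range. The difference was -0.22 (SE 0.114, 95% confidence interval -0.46 to 0.02, limma adjusted p = 0.366). It was -0.21 within early arrays (4 at 50 mg/kg against 1 vehicle array) and -0.20 within late arrays (1 against 4). In the 15 and 0.1 mg/kg groups Pck1 differed from vehicle by 0.02 and 0.05.

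Fbp1 encodes fructose-1,6-bisphosphatase, the bypass of the phosphofructokinase step. The vehicle arrays read 13.89, 14.01, 14.18, 13.97 and 13.91 and the 50 mg/kg arrays 13.78, 13.72, 13.78, 13.88 and 14.01. Of the 50 mg/kg arrays, 4 were below all vehicle arrays, and replicate 5, the late one, was among the higher vehicle values. The difference was -0.16 (SE 0.0675, 95% confidence interval -0.30 to -0.02, limma adjusted p = 0.268). Within early arrays it was -0.10 and within late arrays -0.01. Fbp1 lay at 13.86 to 14.04 on the 15 mg/kg arrays and at 13.90 to 14.02 on the 0.1 mg/kg arrays. Both Pck1 and Fbp1 read close to the top of the scale, where an array compresses differences.

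Among the members of amino acid breakdown, Tat encodes tyrosine aminotransferase, the first enzyme of tyrosine breakdown and a classic glucocorticoid-induced liver gene. Its level was 9.17, 8.81, 10.98, 11.69 and 8.80 on the vehicle arrays, a span of 2.89, and 9.97, 10.24, 10.85, 10.95 and 9.83 at 50 mg/kg. The 50 mg/kg arrays all lay inside the vehicle range. The difference was 0.48 with an SE of 0.543 (95% confidence interval -0.66 to 1.62, limma adjusted p = 0.706), and it was 1.33 within early arrays and -0.24 within late arrays. Leaving out single arrays moved it between 0.21 (without vehicle replicate 5, and also without vehicle replicate 2) and 0.93 (without vehicle replicate 4); without vehicle replicate 1 it was 0.30 and without vehicle replicate 3 it was 0.75. The 15 mg/kg arrays read 9.88, 10.19, 11.44 and 10.99 for Tat, a difference of 0.74 from vehicle (limma adjusted p = 0.663).

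Agxt encodes alanine-glyoxylate aminotransferase, which detoxifies glyoxylate in peroxisomes and also uses serine. The vehicle arrays read 10.60, 10.77, 11.61, 11.76 and 10.88 and the 50 mg/kg arrays 10.68, 10.63, 10.21, 10.74 and 11.12. Vehicle replicates 3 and 4 were the high arrays of their group for both Tat and Agxt, and at 50 mg/kg only replicate 3 was below all vehicle arrays for Agxt. The difference of -0.44 was as large as that of Pc, but its SE was 0.219 (95% confidence interval -0.90 to 0.02, limma adjusted p = 0.344). Within early arrays Agxt differed by -0.03 and within late arrays by -0.13, with early against late as a block by -0.28, and without vehicle replicate 4 by -0.28. It read 10.88 to 11.29 at 15 mg/kg and 10.81 to 11.64 at 0.1 mg/kg, both inside the vehicle range.

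Sds encodes serine dehydratase, which turns serine into pyruvate and ammonia. Its level was 8.41, 8.15, 8.21, 7.60 and 9.70 on the vehicle arrays and 9.38, 8.57, 7.57, 7.41 and 8.22 at 50 mg/kg. Each group held 1 array above 9, and the groups overlapped over nearly their whole range. The difference was -0.18 with an SE of 0.412 (95% confidence interval -1.05 to 0.69, limma adjusted p = 0.861). It was -0.18 within early arrays and -0.19 within late arrays. Leaving out vehicle replicate 5 turned it to 0.14, and leaving out 50 mg/kg replicate 4 to 0.02. The spread was similar in the other groups, with 7.69 to 9.07 at 15 mg/kg and 7.80 to 9.37 at 0.1 mg/kg.

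Got1 encodes the cytosolic aspartate aminotransferase, which carries oxaloacetate carbon between compartments as aspartate. It read 11.46, 10.95, 11.62, 11.40 and 11.48 on the vehicle arrays and 11.16, 11.12, 10.81, 10.67 and 11.53 at 50 mg/kg. The groups overlapped, with the lowest vehicle value on replicate 2. The difference was -0.32 (SE 0.169, limma adjusted p = 0.370), -0.51 within early arrays and 0.16 within late arrays. Got1 read 11.26 to 11.51 at 15 mg/kg and 10.97 to 11.84 at 0.1 mg/kg.

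Hal encodes histidine ammonia-lyase, the first enzyme of histidine breakdown. Its level was 8.37, 8.26, 8.64, 8.59 and 8.98 on the vehicle arrays and 8.32, 8.11, 7.78, 8.32 and 8.71 at 50 mg/kg. The groups overlapped, with 50 mg/kg replicates 2 and 3 below all vehicle arrays. The difference was -0.32 (SE 0.191, limma adjusted p = 0.444), -0.24 within early arrays and 0.09 within late arrays, and -0.20 without 50 mg/kg replicate 3. The 4 arrays at 15 mg/kg were tightly grouped, at 8.59 to 8.70, and the 0.1 mg/kg arrays ranged from 8.23 to 9.24.

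Ppargc1a encodes PGC-1α, the coactivator that turns on gluconeogenic genes and mitochondrial genes with partners such as Hnf4a and Foxo1, and it was the only member with 3 probe sets. On 1393743_at, the probe set with the highest mean, the vehicle arrays read 8.42, 8.84, 8.09, 7.78 and 8.33 and the 50 mg/kg arrays 7.45, 7.98, 7.75, 7.40 and 7.99. Of the 50 mg/kg arrays, 3 were below all vehicle arrays and 2 were inside the vehicle range. The difference was -0.58 (SE 0.196, 95% confidence interval -0.99 to -0.17, limma adjusted p = 0.152), the largest in size among the 9 members' main probe sets. Within early arrays it was -0.77 and within late arrays -0.27. Without vehicle replicate 2 it was -0.44 (limma adjusted p = 0.339), and with the block it was -0.44 (limma adjusted p = 0.450), or -0.35 without the 3 doubtful arrays as well (limma adjusted p = 0.454). On the same probe set the 15 mg/kg arrays read 7.59, 7.88, 8.12 and 8.18 and the 0.1 mg/kg arrays 8.22, 8.85, 8.09, 8.26 and 8.76, with differences from vehicle of -0.35 (limma adjusted p = 0.576) and 0.15. Both groups overlapped the vehicle arrays.

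The other Ppargc1a probe sets were also below vehicle without passing. On 1395518_at the difference was -0.33 (SE 0.177, limma adjusted p = 0.389), -0.30 within early arrays and -0.24 within late arrays. On 1370089_at it was -1.10 (SE 0.498, limma adjusted p = 0.301), with vehicle arrays at 6.65, 7.91, 5.32, 5.63 and 6.08 and 50 mg/kg arrays at 4.73, 5.41, 5.35, 5.13 and 5.48. This probe set was dim, with a mean of 5.90 over the 19 arrays, below the array medians of 6.05 to 6.16. The highest value of this probe set in the vehicle and 0.1 mg/kg groups came from the near-identical pair, 7.91 on vehicle replicate 2 and 8.03 on 0.1 mg/kg replicate 2, where the kidney tubule markers were high. Within early arrays its difference was -1.49 and within late arrays -0.76. Without vehicle replicate 2 it was -0.70 (limma adjusted p = 0.581). With the scores of kidney tubule and the 3 other tissues as covariates it was -0.80 (limma adjusted p = 0.377), and without the 3 doubtful arrays -0.70 (limma adjusted p = 0.234).

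**Figure D2:**
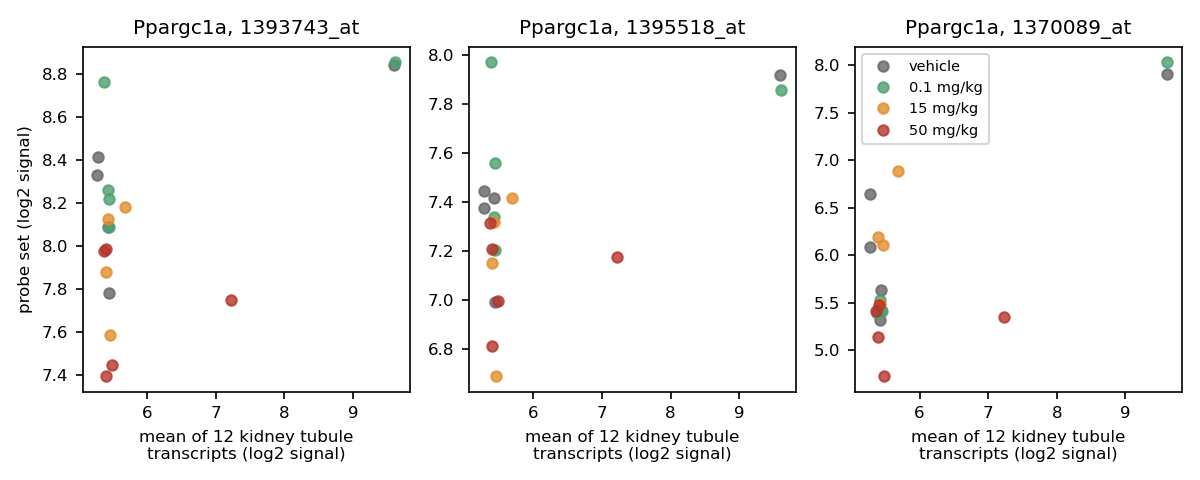
Log2 level (vertical axis, a separate range in each panel) on the 3 Ppargc1a probe sets for each of the 19 arrays. The horizontal axis is the mean log2 level of 12 kidney tubule markers. Each point is an array, coloured by dose group. On 1370089_at, vehicle replicate 2 (7.91) and 0.1 mg/kg replicate 2 (8.03) stand above the other arrays.

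Without the 3 doubtful arrays the differences at 50 mg/kg were -0.22 for Pck1, -0.15 for Fbp1, 0.21 for Tat, -0.53 for Agxt, -0.25 for Sds, -0.43 for Got1 and -0.39 for Hal, and none of these passed. Tat, for which vehicle replicate 2 was among the low vehicle arrays, moved most in proportion.

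At the lower doses no member passed. At 15 mg/kg against vehicle 0 of 9 members and 0% of all probe sets were called by limma. At an unadjusted p under 0.05 there was 1 of 9 members (Pc) and 3083 of 31042 probe sets. At 0.1 mg/kg against vehicle 0 of 9 and 0% were called, with 0 members and 763 probe sets at an unadjusted p under 0.05. Between 50 and 15 mg/kg 0 of 9 and 0% were called, with 1 member (Fbp1) and 2417 probe sets at an unadjusted p under 0.05. The members' median difference was -0.02 at 15 mg/kg, 0.06 at 0.1 mg/kg and -0.24 between 50 and 15 mg/kg, against 0.02, 0.02 and -0.00 over all probe sets. These comparisons share their vehicle or their treated arrays, so their values are not independent. In the limma F-test for any difference among the 4 groups, 0 of 9 members were called against 0.325% of all probe sets, and at an unadjusted p under 0.05 there were 2 members (Pc and Ppargc1a) and 3263 probe sets.

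**Figure D3:**
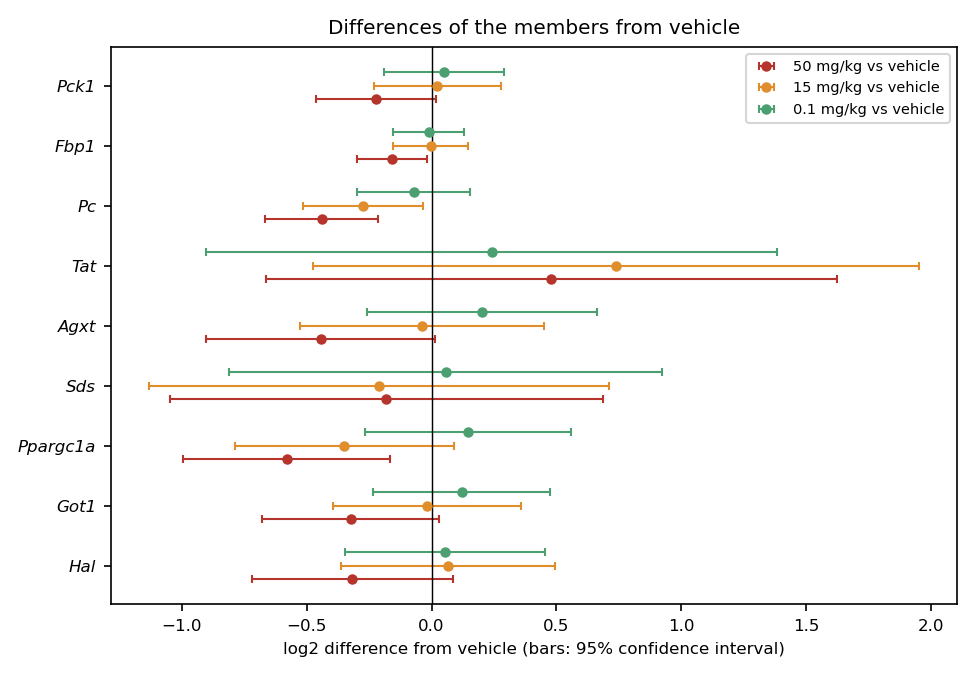
Log2 difference from vehicle (horizontal axis) of each measured member at the 3 doses; points are differences of group means and bars are 95% confidence intervals from the limma fit. At 50 mg/kg the points of 8 of 9 members lie below 0, and the widest interval is that of Tat, from -0.66 to 1.62.

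The members differed from each other in how much they varied within a dose group. The SD within groups was 0.933 for Tat and 0.707 for Sds, above 99.0% and 97.8% of 9662 genes at or above the median level, whose median SD was 0.170. Agxt (0.370), Ppargc1a (0.331), Hal (0.322) and Got1 (0.282) were also above that median, Pck1 (0.185) and Pc (0.172) were near it, and Fbp1 (0.0947) was below it, above only 9.04% of these genes. Within the 50 mg/kg group, replicate 5, its only late array, had the highest level in 6 of 9 members. Among the 36 pairs of members, correlations of deviations from the group means over 16 arrays, leaving out the 3 doubtful ones, gave 0 pairs past an adjusted p of 0.05. By Pearson's r the lowest adjusted p was 0.287, shared by Pck1 with Tat (r = 0.63, permutation p = 0.0156; Spearman's rho = 0.64, permutation p = 0.0178) and Fbp1 with Agxt (r = 0.68, permutation p = 0.0160; rho = 0.69, permutation p = 0.00973). By Spearman's rho the lowest adjusted p was 0.175, shared by Fbp1 with Agxt and Sds with Got1 (rho = 0.72, permutation p = 0.00707; r = 0.52, permutation p = 0.0709). Leaving out the 2 arrays farthest from the median of the first gene of a pair, r was 0.53 for Pck1 with Tat and for Fbp1 with Agxt, and 0.63 for Sds with Got1. Arrays far out only in the second gene were kept.

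Pc was the member that passed a test, and the 3 genes whose levels followed it most closely over the 19 arrays, among 14216 genes, were Aopep (Pearson's r = 0.93), which encodes an aminopeptidase, Lrig3 (r = 0.88) and Slc6a13 (r = 0.87), a transporter of GABA and taurine. Over the 16 arrays without the 3 doubtful ones, r was 0.93, 0.91 and 0.89. These coefficients include the differences between dose groups and describe likeness only.

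The rest of the pathway was read from lists of genes outside the members. Of 22 other gluconeogenesis enzymes and carriers, 0 were called at 50 mg/kg by limma, and the median difference was -0.04. At an unadjusted p under 0.05 there were 8, against 15.4% of all probe sets in either direction (4791 of 31042); 5 of them were above vehicle (Gk, Ldha, Pgam1, Pgk1 and Slc25a10, by 0.23 to 0.33) and 3 below (Tkfc, Slc37a4 and Mdh2). The 2 with the largest differences were Tkfc, triokinase of fructose metabolism, at -0.74 (limma adjusted p = 0.0911), and Slc37a4, the carrier that brings glucose 6-phosphate to its phosphatase, at -0.39 (limma adjusted p = 0.0664).

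Among 14 genes of the opposing glycolytic steps, 2 fell and 12 did not pass, with a median of 0.12, where 1.61% of all probe sets were called. At an unadjusted p under 0.05 there were 4, against 15.4% of all probe sets, and this excess was not tested. Pklr, the liver pyruvate kinase that turns phosphoenolpyruvate into pyruvate, fell by 0.91 (SE 0.161, 1.88-fold lower, limma adjusted p = 0.0085), from 9.02 to 9.77 on the vehicle arrays to 8.11 to 8.94 at 50 mg/kg, with no overlap. Its call held in 21 of 23 alternatives and was lost in 2, with its size at -0.78 with the block for early against late arrays (limma adjusted p = 0.0821) and -0.93 with the scores of other tissues as covariates (limma adjusted p = 0.0964). Pdk2, a kinase that inhibits pyruvate dehydrogenase, fell by 0.45 (SE 0.102, limma adjusted p = 0.0317) and passed in 11 of 23. Its call was lost without vehicle replicate 1, 2 or 5 or without 50 mg/kg replicate 1, 3 or 4 (limma adjusted p between 0.0644 and 0.0967). Leaving out the 3 doubtful arrays, only the groups compared and array number as a covariate also ended it (limma adjusted p between 0.0505 and 0.0993). So did the block (-0.45, limma adjusted p = 0.137), the block without the 3 doubtful arrays (-0.48, limma adjusted p = 0.109) and the tissue scores (-0.41, limma adjusted p = 0.253).

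Of 56 further genes of amino acid breakdown, 1 rose, 1 fell and 54 did not pass, with a median of 0.05, where 1.61% of all probe sets were called. At an unadjusted p under 0.05 there were 16, against 15.4% of all probe sets, and this excess was not tested. Hibch, a hydrolase of valine breakdown, rose by 0.47 (SE 0.0931, limma adjusted p = 0.0163) and lost its call in 4 of 23 alternatives. These were the block (0.44, limma adjusted p = 0.104), the block without the 3 doubtful arrays (0.37, limma adjusted p = 0.132), the tissue scores (0.56, limma adjusted p = 0.0980) and leaving out 50 mg/kg replicate 1 (0.42, limma adjusted p = 0.0568). Glud1, the mitochondrial glutamate dehydrogenase that frees ammonia from glutamate, fell by 0.38 (SE 0.0891, limma adjusted p = 0.0381), from 12.99 to 13.24 on the vehicle arrays to 12.54 to 12.97 at 50 mg/kg. Its call held in 9 of 23 alternatives and was lost without vehicle replicate 1, 3, 4 or 5 or without 50 mg/kg replicate 1, 3 or 4 (limma adjusted p between 0.0569 and 0.0980). Median centring, only the groups compared, the replicate block and array number as a covariate also ended it (limma adjusted p between 0.0697 and 0.104). So did the block (-0.37, limma adjusted p = 0.162), the block without the 3 doubtful arrays (-0.38, limma adjusted p = 0.120) and the tissue scores (-0.35, limma adjusted p = 0.233).

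The remaining lists held no called gene at 50 mg/kg, and their counts at an unadjusted p under 0.05 are to be read against the same 15.4% of all probe sets. Of 23 regulators of gluconeogenic genes 5 had an unadjusted p under 0.05, with a median of 0.00, and the largest differences were -0.64 for Onecut1 (limma adjusted p = 0.340) and -0.54 for Stat3 (limma adjusted p = 0.330). Of 9 genes of the urea cycle 1 did, with a median of 0.02, led by Asl, argininosuccinate lyase, at -0.38 (limma adjusted p = 0.348) and the ornithine carrier Slc25a15 at -0.22 (limma adjusted p = 0.298). Of 18 genes of the fasting and hormone response 2 did, with a median of -0.05, led by the fasting hormone Fgf21 at -1.07 (limma adjusted p = 0.514) and Trib3 at 0.59 (limma adjusted p = 0.672). Of 15 clock genes 0 did, with a median of -0.00, led by Npas2 at -0.22 (limma adjusted p = 0.827) and Per3 at -0.19 (limma adjusted p = 0.757). In the 15 mg/kg group no gene of these 7 lists passed in limma, and 0 to 3 genes a list had an unadjusted p under 0.05.

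**Figure D4:**
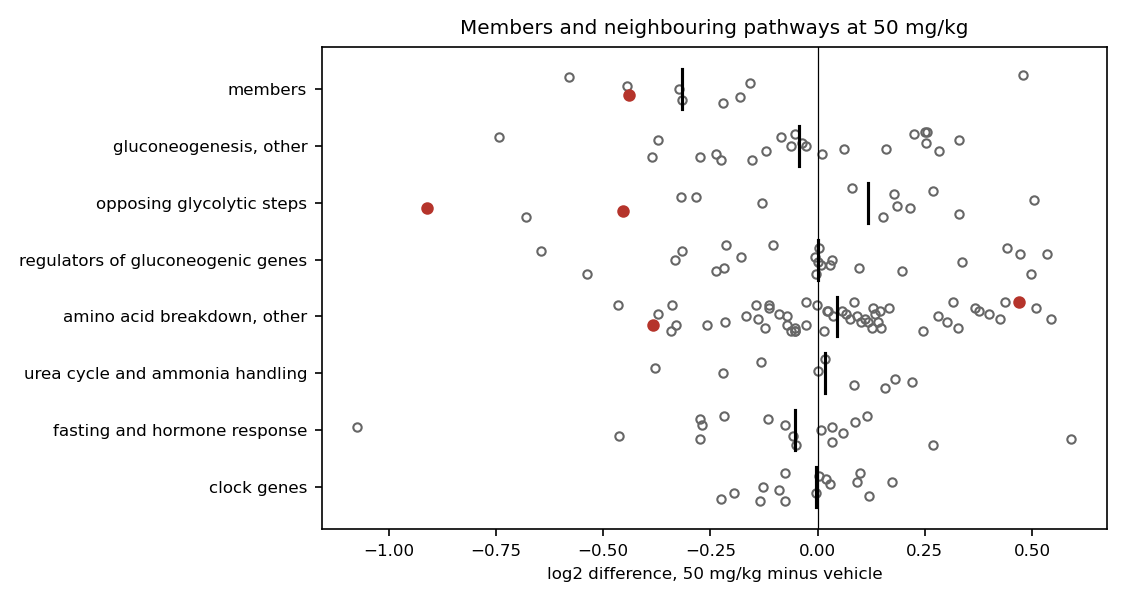
Log2 difference of 50 mg/kg from vehicle (horizontal axis) for each measured member (top line) and each measured gene of the 7 lists outside the members; each point is a gene, upright bars are list medians and filled points passed at a limma adjusted p under 0.05. Beside Pc (-0.44), the 4 filled points are Pklr (-0.91), Pdk2 (-0.45), Glud1 (-0.38) and Hibch (0.47).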

How the data were processed

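The authors deposited log2 values of 31099 probe sets on 19 arrays. RMA is named in the submitters' processing notes, without a version, and background correction and normalization settings are not given in the sources used here. Array medians lay between 6.05 and 6.16, and 57 control probe sets were left out. The platform annotation gave 20826 probe sets 1 symbol (20758 matched to RefSeq), 436 several and 9780 none. A gene was read from its probe set with the highest mean. limma 3.58.1 (R 4.3.3) fitted a mean per dose group over all 19 arrays (15 residual degrees of freedom, prior 2.78), with Benjamini-Hochberg adjustment over 31042 probe sets and a threshold of 0.05. The fit was tested on simulated data. The number of arrays limits the precision.

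The members and lists were chosen with earlier results of these data known. All members were named; of each list, up to 4 called genes with the largest changes at 50 mg/kg were named, or else the 2 largest differences; and the 3 genes with the highest Pearson's r to each called member. The alternatives were median centring, cyclic loess, a filter on dim probe sets, a trended robust prior, fewer arrays, replicate and array number terms, mean probe sets and array weights. Leaving out the 3 doubtful arrays together, doing so with the early and late block, the tissue scores, the pairwise correlations (Python 3.11.15, 100000 permutations within groups), the within-group SDs and the promoter motif were chosen after seeing the data.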

Additional observations from a re-analysis of the deposited data

Results flagged for a closer look

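In 44 groups of 4 or 5 arrays, one for each member probe set and dose, the highest and the lowest array were set against the rest of the group by Dixon's criterion, which chance meets in about 1 group in 20, and 2 groups met it. For Fbp1, 15 mg/kg replicate 2, the only early array of its group, read 13.865 where the other 3 arrays read 14.02 to 14.041. For Ppargc1a on 1370089_at, 0.1 mg/kg replicate 2 read 8.0313 where the other 4 arrays read 5.3852 to 5.5233. This array is 1 of the near-identical pair with high kidney tubule markers, and the part of those markers in its value was not tested.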

How the results depend on the processing

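The single member call, Pc, is near its threshold, and 3 of 19 arrays are doubtful. By array number, 4 of 5 arrays at 50 mg/kg are early where 4 of 5 vehicle arrays are late, so dose and array number are only partly separable. At 50 mg/kg against vehicle, the count of members called went from 1 to 0 with array number as a covariate, median centring, the early and late block with and without the 3 doubtful arrays, only the groups compared, the replicate block, the tissue scores, and without the 3 doubtful arrays, and it lay between 0 and 1 when single arrays were left out; the cause was not tested. It stayed at 1 with cyclic loess, the filter on dim probe sets, the trended robust prior, mean probe sets and array weights. The count over all probe sets (499) was 171 with array number as a covariate, 921 with array weights, 57 with the early and late block, 216 with that block without the 3 doubtful arrays and 17 with the tissue scores, and 178 to 616 when single arrays were left out, lowest without 50 mg/kg replicate 1 and highest without 0.1 mg/kg replicate 1. At 15 mg/kg against vehicle (0) it was 8 with array number, 13 with array weights, 7 with the early and late block, 14 with that block without the 3 doubtful arrays, 4 with mean probe sets, 2 with only the groups compared, 4 with the filter on dim probe sets, 10 without the 3 doubtful arrays, and 0 to 11 when single arrays were left out. The number called lower at 50 mg/kg (119) was 63 with median centring, 158 with cyclic loess, 290 with array weights, 23 with array number, 5 with the early and late block, 3 with the tissue scores and 23 without 50 mg/kg replicate 1. Same-numbered samples did not all correlate above 0.1: 1 of 5 pairs did for 50 mg/kg and vehicle (r from -0.471 to 0.471), 1 of 4 for 15 mg/kg and vehicle, and 4 of 5 for 0.1 mg/kg and vehicle (r from 0.0452 to 0.886, the highest being the near-identical pair). The numbers were therefore not taken as pairs, and with the replicate block Pc was at -0.44 (limma adjusted p = 0.0552).

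In the other 3 comparisons, 51 of 621 alternative member values changed sign, 0 passed the threshold (lowest limma adjusted p 0.315), and all of these started as differences that had not passed. At 15 mg/kg against vehicle, Fbp1 was 0.014 with median centring, 0.0025 with the early and late block, and 0.0020 without the 3 doubtful arrays, with that block or without it; Hal was -0.025 with array weights, -0.012 without the 3 doubtful arrays, with the block or without it, and -0.072 with the tissue scores; Pck1 was -0.0074 with array weights and -0.020 with the replicate block; and Got1 was 0.0012 with the replicate block. At 0.1 mg/kg against vehicle, Fbp1 was 0.0011 with median centring, Hal -0.032 with the tissue scores, Ppargc1a -0.021 with mean probe sets, Sds -0.043 and Tat -0.00025 with array weights. Between 50 and 15 mg/kg, Sds was -0.0073 with cyclic loess and -0.072 with the replicate block, and Tat 0.028 with the early and late block without the 3 doubtful arrays and 0.016 with the tissue scores. With single arrays left out, the ranges that crossed 0 at 15 mg/kg were -0.17 to 0.12 for Agxt, -0.028 to 0.044 for Fbp1, -0.13 to 0.042 for Got1, -0.012 to 0.17 for Hal, -0.041 to 0.078 for Pck1 and -0.50 to 0.11 for Sds. At 0.1 mg/kg they were -0.036 to 0.036 for Fbp1, -0.10 to 0.16 for Hal, -0.022 to 0.10 for Pck1, -0.17 to 0.38 for Sds and -0.031 to 0.69 for Tat. Between 50 and 15 mg/kg they were -0.26 to 0.32 for Sds and -0.51 to 0.013 for Tat, and at 50 mg/kg against vehicle -0.47 to 0.14 for Sds.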
